A study of Mus musculus with 24 samples.

Results

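The subject here is the difference between the upper and the lower face in cranial neural crest cells without Ezh2. It was read from 8 of the 24 promoter capture Hi-C libraries of the series: 4 from the upper face, FNP (frontonasal process) and Mx (maxillary process), and 4 from the lower face, Md (mandibular process) and PA2 (second pharyngeal arch). All 8 came from E11.5 mouse embryos with the genotype Ezh2cKO, with 2 biological replicates per tissue. The 8 WT libraries of the same tissues and stage served for comparison, and the remaining libraries (E8.5 WT progenitors and the Hoxa2PTE-36kb-del and Hoxa2PTE-42kb-del groups) entered only the shared estimate of spread. Cells of Wnt1::Cre;ROSARFP and Ezh2cKO embryos were sorted by fluorescence. The sources used here do not name the driver of the conditional knockout or say whether embryos were pooled, and no value measures the loss of Ezh2 itself.

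Ezh2 is the catalytic subunit of Polycomb repressive complex 2, which methylates lysine 27 of histone H3 at silent developmental genes, and promoters that carry this mark often meet each other over long distances. Neural crest cells of the face share an origin and take on position from local signals: endothelin signalling turns on Dlx5, Dlx6 and then Hand2 in the lower jaw, whereas Alx, Pax3, Six2 and Msx genes are typical of the frontonasal and maxillary region. Second arch crest is also marked by Hoxa2. Promoter capture Hi-C cuts cross-linked DNA with HindIII, ligates fragments that lie close together and enriches ligation products of promoter fragments, called baits. In each library a list of bait and other-end pairs with a score of 5 or more was deposited, and each such pair is here named a call.

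The 8 Ezh2cKO libraries held 164248 to 190343 calls, of which 157752 to 183781 joined fragments of the same chromosome (cis). The calls averaged 176665 ± 10960 in the upper and 177945 ± 8216 in the lower libraries (SD, n = 4 each). The value analysed for a bait was its cis calls per 100000 cis calls of the library. In such mixed cell populations, fewer cells that have a contact and a weaker contact in every cell cannot be told apart. Each library had a batch label of its own, so batch and library cannot be told apart.

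Promoter sequences are printed for 4 of the genes on which the results turn, with CG dinucleotides in capitals, because promoters dense in CG are the ones on which Polycomb complexes typically gather. They are 300 bases of RefSeq GRCm38.p6, read 5′ to 3′ on the gene's strand, with 250 bases before and 50 bases after the start. A sequence was matched for 9 of the 14 genes named on the baits that passed the test.
Hand2, chr8:57320733-57321032, plus strand: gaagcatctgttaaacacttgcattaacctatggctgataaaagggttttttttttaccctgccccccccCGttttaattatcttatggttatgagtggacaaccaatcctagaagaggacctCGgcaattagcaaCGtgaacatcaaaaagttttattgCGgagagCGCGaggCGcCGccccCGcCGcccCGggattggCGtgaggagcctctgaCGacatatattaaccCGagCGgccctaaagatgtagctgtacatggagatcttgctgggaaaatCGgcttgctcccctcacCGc
Msx2, chr13:53472731-53473030, minus strand: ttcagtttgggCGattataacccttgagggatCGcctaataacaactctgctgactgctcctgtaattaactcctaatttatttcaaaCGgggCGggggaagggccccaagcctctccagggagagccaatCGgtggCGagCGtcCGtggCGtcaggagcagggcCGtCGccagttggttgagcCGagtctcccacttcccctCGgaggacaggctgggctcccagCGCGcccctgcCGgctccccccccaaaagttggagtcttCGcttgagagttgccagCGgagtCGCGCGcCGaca
Six2, chr17:85688205-85688504, minus strand: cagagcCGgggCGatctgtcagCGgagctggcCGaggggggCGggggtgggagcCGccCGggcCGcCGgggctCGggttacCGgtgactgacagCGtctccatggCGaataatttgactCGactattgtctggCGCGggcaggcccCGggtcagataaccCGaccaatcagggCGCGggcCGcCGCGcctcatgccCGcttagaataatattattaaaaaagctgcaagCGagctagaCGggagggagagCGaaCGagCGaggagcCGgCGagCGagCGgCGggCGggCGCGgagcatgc
Runx2, chr17:44814578-44814877, minus strand: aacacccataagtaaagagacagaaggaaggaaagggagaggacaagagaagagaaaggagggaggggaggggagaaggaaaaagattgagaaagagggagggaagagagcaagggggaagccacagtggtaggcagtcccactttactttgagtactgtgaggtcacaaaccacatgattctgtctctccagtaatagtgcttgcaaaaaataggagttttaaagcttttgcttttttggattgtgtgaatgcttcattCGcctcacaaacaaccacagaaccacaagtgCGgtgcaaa

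The 4 promoters differed in CG content. Hand2 held 17 CG dinucleotides and Msx2 held 22, against a median of 7 over 32851 promoters, and 31.4% and 23.1% of all promoters held at least as many. Six2 held 37, reached by 5.58% of promoters, and Runx2 held 2, reached by 85.9%. Any CG at all was found in 94.6% of promoters. The printed windows of Hand2 and Six2 lie within their bait fragments, that of Runx2 overlaps its bait in part, and that of Msx2 lies just beside its bait.

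The comparison asked which promoters still carry a positional difference in contacts when Ezh2 is missing. Of 10344 baits with a mean of at least 5 cis calls, 15 (0.145%) differed between upper and lower Ezh2cKO libraries at an adjusted p below 0.05 (limma with Benjamini-Hochberg adjustment over all baits tested). There were 11 baits with more calls in the upper libraries (0.106%) and 4 with fewer (0.0387%). At an unadjusted p below 0.05 there were 985 baits. Leaving out 1 Ezh2cKO library gave 9 (without Md replicate 1) to 26 baits (without Md replicate 2), and a fit of the 8 libraries alone gave 6. The 11 were the baits of Alx1, Runx2, Msx2, Pax3, Eya1, Angpt2, Stx18, Six2, Fosl2 and Lix1 and a bait near Gata3, and the 4 were those of Hand2, Rgmb, Slc23a1 and T. A list of patterning genes outside the Hox clusters had 176 tested baits, of which 5 passed with more upper calls (Alx1, Runx2, Msx2, Pax3 and Six2) and 2 with fewer (Hand2 and T). Library values below are calls, in the order replicate 1 and 2 of FNP and then of Mx for the upper face, and replicate 1 and 2 of Md and then of PA2 for the lower face. A difference is log2 of upper over lower, with its standard error (SE).

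**Figure D1:**
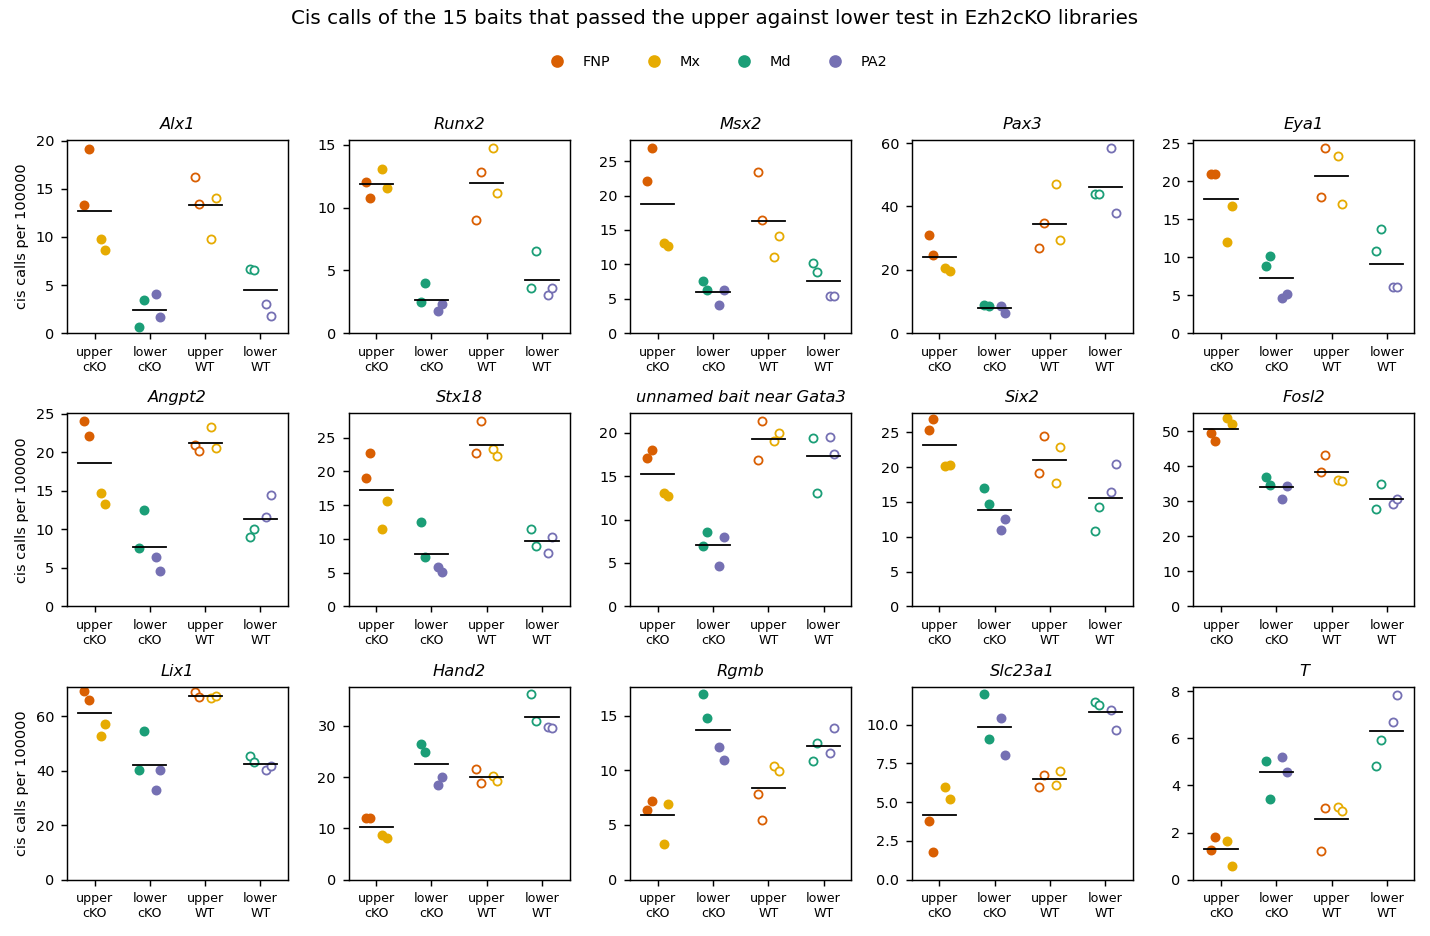
Cis calls per 100000 cis calls of the library (vertical axes) for the 15 baits that passed in Ezh2cKO, 1 panel per bait, in upper Ezh2cKO, lower Ezh2cKO, upper WT and lower WT libraries. Points are libraries coloured by tissue, filled for Ezh2cKO and open for WT, and lines are means of 4 libraries. The filled groups stand apart except at Lix1 and Stx18, and at Pax3 alone of the 15 the order of the upper and lower means differs between Ezh2cKO and WT.

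Hand2, a helix-loop-helix factor that acts downstream of endothelin in the distal arches, had a bait at chr8:57318613-57347153 that spans the gene. It was called 19, 20, 16 and 14 times in upper Ezh2cKO libraries, against 42, 44, 32 and 35 times in lower Ezh2cKO libraries. All 4 upper libraries lay below all 4 lower ones, and within each side the first-named tissue was the higher. The difference was -1.12 (SE 0.119, limma adjusted p = 2.608e-05). In WT the calls were 36, 31, 33 and 33 in upper libraries and 60, 52, 49 and 49 in lower libraries, with a difference of -0.65 (SE 0.119, adjusted p = 0.0112). Hand2 thus had fewer calls in each Ezh2cKO tissue than in the matching WT tissue and kept its direction. The 2 differences themselves differed by -0.48, which did not pass (adjusted p = 0.621).

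Of the other 3 baits with fewer upper calls, Rgmb encodes a coreceptor for bone morphogenetic proteins. It had 10, 12, 6 and 12 calls in upper Ezh2cKO libraries and 27, 26, 21 and 19 calls in lower ones, a difference of -1.21 (SE 0.216, adjusted p = 0.0162). T (Brachyury), a mesoderm factor, had 2, 3, 3 and 1 calls in upper and 8, 6, 9 and 8 calls in lower Ezh2cKO libraries, a difference of -1.65 that rests on single-digit counts (SE 0.309, adjusted p = 0.0217). Slc23a1, an ascorbate transporter gene on chromosome 18, had 6, 3, 11 and 9 calls in upper and 19, 16, 18 and 14 calls in lower Ezh2cKO libraries, a difference of -1.28 (adjusted p = 0.00625). The groups did not overlap at any of the 3. In WT, T differed by -1.26, which did not pass (adjusted p = 0.0587).

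Of the frontonasal and upper face list, 4 baits passed with more upper calls: Alx1, Msx2, Six2 and Pax3. Alx1, a homeobox factor needed for the frontonasal skeleton, had 21, 32, 18 and 15 calls in upper and 1, 6, 7 and 3 calls in lower Ezh2cKO libraries (bait chr10:103026355-103030016). Its difference of 2.41 was the largest of the 15 (SE 0.403, adjusted p = 0.00715). In WT it had 27, 22, 16 and 24 calls in upper and 11, 11, 5 and 3 calls in lower libraries, a difference of 1.65 that did not pass (adjusted p = 0.0582).

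Msx2, a homeobox factor induced by bone morphogenetic proteins, had 35, 45, 24 and 22 calls in upper and 12, 11, 7 and 11 calls in lower Ezh2cKO libraries (bait chr13:53473070-53474118). The difference was 1.55 (SE 0.185, adjusted p = 0.00014) in Ezh2cKO and 1.08 (adjusted p = 0.00709) in WT, where its calls were 39, 27, 18 and 24 in upper and 17, 15, 9 and 9 in lower libraries. In both genotypes the FNP libraries stood above the Mx libraries, and upper and lower libraries did not overlap. Six2, a homeobox factor of frontonasal and kidney mesenchyme, had 40, 45, 37 and 35 calls in upper and 27, 26, 19 and 22 calls in lower Ezh2cKO libraries, a smaller difference of 0.74 (adjusted p = 0.0382). That call was lost in 15 of 24 alternative settings, among them the removal of any 1 of the 8 Ezh2cKO libraries (adjusted p of 0.06077 to 0.1172).

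Pax3, a paired-box factor of early crest and frontonasal mesenchyme, differed from the others in its WT values. It had 49, 41, 38 and 34 calls in upper and 14, 15, 15 and 11 calls in lower Ezh2cKO libraries (bait chr1:78196361-78197158), a difference of 1.53 (SE 0.161, adjusted p = 2.608e-05). In WT it had 45, 57, 77 and 50 calls in upper and 73, 74, 96 and 63 calls in lower libraries, a difference of -0.43 that did not pass (adjusted p = 0.271). Every lower Ezh2cKO library was far below every lower WT library. The upper libraries of the 2 genotypes overlapped in FNP, whereas both Mx Ezh2cKO libraries (38 and 34 calls) lay below both Mx WT libraries (77 and 50 calls). Per 100000 cis calls, the upper libraries averaged 23.99 ± 5.159 in Ezh2cKO and 34.58 ± 9.047 in WT, and the lower libraries 8.073 ± 1.183 in Ezh2cKO and 46.1 ± 8.665 in WT (SD, n = 4 each). The difference between the genotypes in upper minus lower was 1.95 (SE 0.228, adjusted p = 0.000279). Pax3 was the 1 bait of 10344 (0.00967%) that passed this test, with 649 baits at an unadjusted p below 0.05. With calls limited to a score of at least 10 the Pax3 difference was 2.09 and no bait passed, and without PA2 Ezh2cKO replicate 2 it was 1.84 and 3 baits passed.

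The baits of Runx2, Eya1 and Fosl2 also had more upper calls. Runx2, the osteoblast determinant, had 19, 18, 24 and 20 calls in upper and 4, 7, 3 and 4 calls in lower Ezh2cKO libraries (bait chr17:44814650-44815363), a difference of 2.11 (SE 0.292, adjusted p = 0.00107). In WT its calls were 15, 21, 24 and 19 in upper and 6, 11, 5 and 6 in lower libraries, a difference of 1.47 (adjusted p = 0.0191). Eya1, a transcriptional coactivator and phosphatase, had 33, 35, 22 and 29 calls in upper and 14, 18, 8 and 9 calls in lower Ezh2cKO libraries. Its differences of 1.30 in Ezh2cKO (SE 0.195, adjusted p = 0.00225) and 1.22 in WT (adjusted p = 0.00576) were alike in size. Fosl2, an AP-1 subunit active in bone, had many calls on both sides, 78, 79, 99 and 90 in upper and 59, 61, 53 and 60 in lower Ezh2cKO libraries. Its difference was 0.57 (adjusted p = 0.0217), and the call was lost in 11 of 25 alternative settings, among them 7 of the 8 removals of 1 Ezh2cKO library.

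The last 4 baits with more upper calls were Angpt2, Stx18, Lix1 and 1 bait without a named gene. Angpt2, which encodes a ligand of the vascular receptor Tie2, had 38, 37, 27 and 23 calls in upper and 12, 22, 11 and 8 calls in lower Ezh2cKO libraries, with differences of 1.28 in Ezh2cKO (adjusted p = 0.00117) and 0.91 in WT (adjusted p = 0.0191). Stx18, a syntaxin gene next to Msx1, had 30, 38, 21 and 27 calls in upper and 20, 13, 10 and 9 calls in lower Ezh2cKO libraries, with differences of 1.17 (adjusted p = 0.0196) and 1.30 in WT (adjusted p = 0.00587). Lix1 had 109, 110, 97 and 99 calls in upper and 64, 96, 57 and 70 calls in lower Ezh2cKO libraries, and the single high lower value was Md replicate 2. Its differences were 0.56 (adjusted p = 0.0302) and 0.66 in WT (adjusted p = 0.00587). At Stx18 and Lix1 the groups overlapped once calls were scaled to the library. The unnamed bait at chr2:9886444-9895288, near Gata3, had 27, 30, 24 and 22 calls in upper and 11, 15, 8 and 14 calls in lower Ezh2cKO libraries, a difference of 1.10 (adjusted p = 0.00715). In WT its sides overlapped at 28, 35, 31 and 34 calls in upper and 32, 22, 32 and 29 calls in lower libraries, but the difference between genotypes did not pass (0.94, adjusted p = 0.411). Without Md Ezh2cKO replicate 1, 8 of the 15 baits did not pass: Alx1, Rgmb, Lix1, T, Six2, Slc23a1, Fosl2 and the bait near Gata3, with adjusted p of 0.05367 to 0.154. Each kept its direction, and without that library the differences were 1.92 for Alx1, -1.16 for Rgmb, 0.45 for Lix1, -1.51 for T, 0.79 for Six2, -1.18 for Slc23a1, 0.59 for Fosl2 and 1.03 for the bait near Gata3.

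All 4 upper libraries lay above all 4 lower ones at 241 of the 10344 baits in Ezh2cKO (2.33%), and below them at 267 (2.58%). Of the 15 baits, 13 had groups that did not overlap. The median absolute difference was 1.275 over the 15 and 0.2069 over all baits tested. Because the 15 were chosen by a test on these same libraries, both values follow in part from that choice and are no added evidence.

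In WT, 81 of the 10344 baits passed (0.783%), 38 with more upper calls (0.367%) and 43 with fewer (0.416%), and 1205 had an unadjusted p below 0.05. Leaving out 1 WT library gave 28 (without PA2 replicate 1) to 59 baits (without Mx replicate 2). 7 baits passed in both genotypes and all 7 kept their direction: Eya1, Msx2, Lix1, Runx2, Stx18, Angpt2 and Hand2. Of the 15 baits of Ezh2cKO, 14 had the same sign in WT (93.3%), Pax3 being the exception, against 57.5% of all baits tested. Of the 81 baits of WT, 70 had the same sign in Ezh2cKO (86.4%), and 32 of the 81 had both the same sign and an unadjusted p below 0.05 there, against 674 of all 10344 baits. The WT baits had a median absolute difference of 0.4591 in Ezh2cKO and 1.122 in WT. Because each set was chosen for a large difference in its own genotype, the smaller median in the other genotype is fixed in part by that choice. None of the 81 passed the test of the difference between genotypes.

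**Figure D2:**
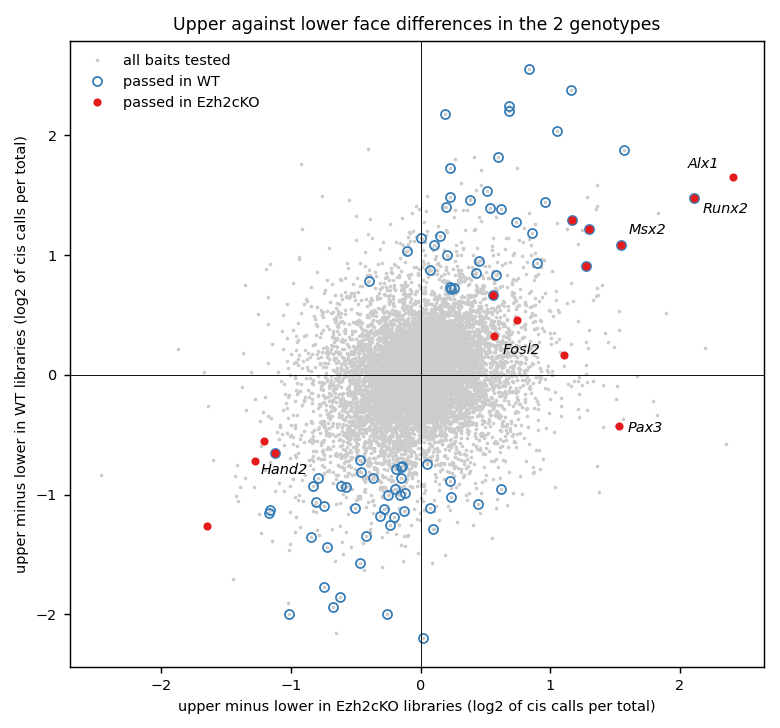
Upper minus lower difference of each tested bait in Ezh2cKO (horizontal axis) and in WT (vertical axis), both as log2 of cis calls per total cis calls. Grey points are the 10344 baits tested, red points the 15 that passed in Ezh2cKO and blue rings the 81 that passed in WT. Pax3 lies at 1.53 and -0.43, and the other red points lie where both differences have 1 sign.

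The largest WT differences had smaller values in Ezh2cKO, which is fixed in part by choosing them for their size in WT. Rasl11b, a small GTPase gene, had 15, 19, 9 and 13 calls in upper and 13, 11, 4 and 5 calls in lower Ezh2cKO libraries, a difference of 0.84 (adjusted p = 0.723). In WT it had 15, 3, 12 and 11 calls in upper and 1, 2, 3 and 0 calls in lower libraries, a difference of 2.55 (adjusted p = 0.0488). Rai14 differed by 0.68 in Ezh2cKO and 2.21 in WT, the bait of Gen1 and Smc6 by 0.19 and 2.18, and Ap3m2 by 1.05 and 2.04.

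Mpped2 had 28, 27, 18 and 27 calls in upper and 21, 16, 12 and 17 calls in lower Ezh2cKO libraries, against 42, 44, 42 and 41 calls in upper and 12, 17, 11 and 8 calls in lower WT libraries. Its difference was 0.59 in Ezh2cKO (adjusted p = 0.457) and 1.82 in WT (adjusted p = 0.00203). In the other direction, Krt6a, a keratin gene, differed by 0.02 in Ezh2cKO and by -2.20 in WT (adjusted p = 0.00846). The bait of Cbx5 and Hnrnpa1 (Cbx5;Hnrnpa1) differed by -0.26 in Ezh2cKO, Pdzph1 by -0.68 and -1.94, Slc38a2 by -0.75 and -1.77, and the bait of Cep44 and Fbxo8 by -0.72 and -1.44. None of these 10 passed in Ezh2cKO, and none of the 10 passed the test between genotypes.

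Fewer upper calls that did not pass in Ezh2cKO were seen at 6 further named baits with the smallest p. Fxr2, an RNA-binding protein gene, had 31, 41, 25 and 8 calls in upper and 80, 60, 44 and 59 calls in lower libraries, a difference of -1.37 (adjusted p = 0.054). Dlx2, a homeobox gene of the arches, had 7, 4, 13 and 10 calls in upper and 18, 14, 18 and 15 calls in lower libraries, a difference of -0.998 (adjusted p = 0.0679), against -0.42 in WT. Calml3 differed by -0.83, Arhgap15 by -0.81 and Krt75 by -0.79, with adjusted p of 0.0662, 0.0718 and 0.0718, and these 3 passed in WT at -0.93, -1.06 and -0.86. The bait of Agpat1, Egfl8, Ppt2 and Prrt1 had 4, 7, 6 and 6 calls in upper and 16, 18, 8 and 14 calls in lower Ezh2cKO libraries, a difference of -1.18 (adjusted p = 0.0718).

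The calls of the 15 baits were then followed along the chromosome. Regions are other ends that were called in at least 3 more libraries of 1 side in Ezh2cKO and lie within 20 kb of each other. They were chosen for that difference, so the Ezh2cKO values describe the choice and only the WT values are a separate reading.

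At Hand2 the calls lay upstream. The region at chr8:56690065-56717567, 629.1 kb before the bait, drew 1.25 calls per upper and 7.5 per lower Ezh2cKO library, and 2.25 per upper and 8.25 per lower WT library. A region at chr8:56617861-56650153, 698.9 kb before the bait, drew 5.25 calls per upper and 11.25 per lower Ezh2cKO library. In WT the same region drew 12.25 calls per upper and 14 per lower library, so its 2 sides were closer there. Other ends called in at least 3 of 4 libraries numbered 12 in upper and 33 in lower Ezh2cKO libraries, and all 12 were among the 33. In WT they numbered 24 and 47, with 22 in common. Hand2 also had calls on 1 side of 1 genotype: the fragments 16.3 and 20.8 kb after the bait were called in all 4 upper WT libraries and in no other of the 16 libraries. The fragments 467.9 and 456.3 kb before the bait were called in all 4 lower WT libraries and in none of the Ezh2cKO or upper WT libraries.

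At Pax3 the calls of the lower Ezh2cKO libraries were thinned on both flanks. Other ends called in at least 3 of 4 libraries numbered 32 in upper and 7 in lower Ezh2cKO libraries, against 46 in upper and 45 in lower WT libraries. The region at chr1:77938503-77976247, 239.4 kb from the bait, drew 9 calls per upper and 2.25 per lower Ezh2cKO library, against 11 and 10.25 in WT. The region at chr1:78419881-78464724, over Sgpp2 and Farsb, drew 13.75 calls per upper and 4.75 per lower Ezh2cKO library, against 14.5 and 11 in WT. Close to the promoter the picture differed. The Pax3 fragments 63.1, 52.6 and 51.1 kb from the bait were called in all 4 lower WT libraries and in no upper WT library, and in none of the 8 Ezh2cKO libraries.

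At Alx1 the region at chr10:102865733-102894513, 148.1 kb from the bait, drew 8.75 calls per upper and 0.5 per lower Ezh2cKO library, against 9.75 and 2.5 in WT. A second region 94.4 kb to the other side, in Lrriq1, drew 3.25 calls per upper library and 0 per lower library in both genotypes. At Msx2 the region at chr13:53584062-53601213, 119 kb away, drew 5.5 calls per upper and 0 per lower Ezh2cKO library, against 4.25 and 0.25 in WT. Both genotypes had the same order of sides in these 3 regions.

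Among the 15 baits Fosl2 had the most fragments chosen in this way, 16. The region at chr5:31868429-31924623, 56.2 kb long and within Babam2, drew 13.25 calls per upper and 0.75 per lower Ezh2cKO library, against 2.25 per upper and 0.25 per lower WT library. The fragments 243.9 and 243 kb before the Fosl2 bait were called in all 4 upper Ezh2cKO libraries and in none of the other 12 libraries of the comparison. Its other ends called in at least 3 of 4 libraries numbered 78 in upper and 52 in lower Ezh2cKO libraries, and all 52 were shared, against 56 and 48 in WT.

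At Six2 the region at chr17:85970989-85992864, in Srbd1, drew 4.25 calls per upper and 0.5 per lower Ezh2cKO library, against 3.5 and 0 in WT. At Runx2 a region 512 kb away drew 3 calls per upper and 0 per lower Ezh2cKO library, against 1.75 and 0.25 in WT. The Eya1 region 189.9 kb away drew 9.25 and 2.75, against 9 and 3.5 in WT. The Angpt2 region in Mcph1 drew 6.25 and 0.5, against 7 and 1.75 in WT, and the Stx18 region that covers Msx1 drew 14.25 and 6.25, against 15.5 and 8 in WT. The Lix1 region 34.5 kb away drew 5.75 and 0.25, against 4 and 0 in WT. The bait near Gata3 reached 1207.6 kb, to a region that drew 12 and 4.25, against 12.25 and 7.75 in WT. Only 1 region per bait is given here. Other regions kept the order in WT, such as Six2 107.4 kb away (1.75 and 0.75) and Eya1 260.8 kb away (1.5 and 0.5). Some did not, such as Six2 379.7 kb away (0.75 and 1) and Eya1 514.3 kb away (0.75 and 0.75). Angpt2 130.1 kb away (1 and 1) and Runx2 235.9 kb away (0 and 0) did not either. All chosen fragments, also those of Rgmb, Slc23a1 and T, are summed below.

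**Figure D3:**
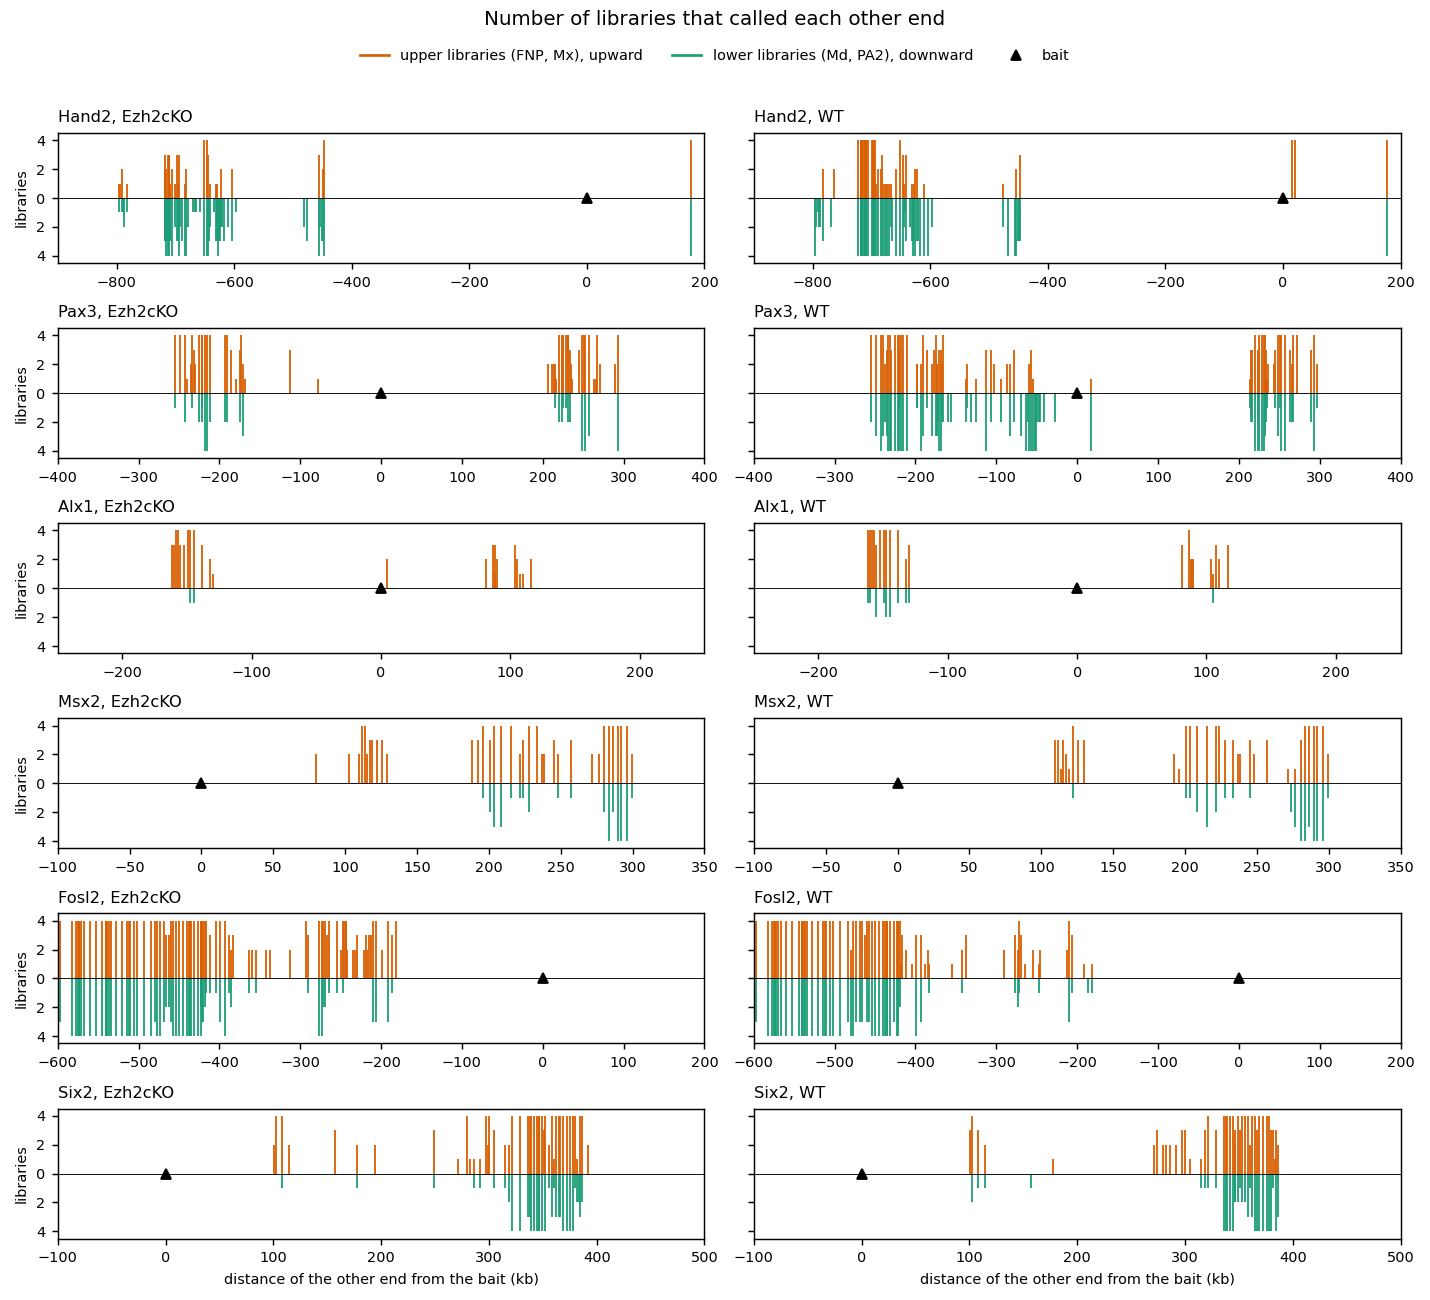
Number of libraries that called each other end, by its distance from the bait in kb, for Hand2, Pax3, Alx1, Msx2, Fosl2 and Six2, with Ezh2cKO panels on the left and WT panels on the right. Orange bars point up for the 4 upper libraries, green bars point down for the 4 lower libraries and the triangle marks the bait. Lower bars at Pax3 are sparse in Ezh2cKO and dense in WT, and Fosl2 has orange bars about 240 kb before the bait in Ezh2cKO that are mostly missing in WT.

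Summed over all fragments chosen in this way, each of the 15 baits leaned the same way in the WT libraries, which took no part in the choice. The sides of WT did not overlap at 10 of the 15. The overlapping ones were Pax3, Msx2, Rgmb, T and Fosl2. Over all 10344 baits the WT upper libraries were all above the lower ones in total cis calls at 3.69% and all below at 3.62%. These shares are for another measure and for baits that were not chosen. They are therefore no background for the 10 of 15, and the share for fragments chosen in the same way at other baits was not computed. For Hand2, 11 fragments held 0, 0, 1 and 0 calls in upper and 9, 9, 9 and 8 calls in lower Ezh2cKO libraries, and 4.0 ± 1.414 against 8.25 ± 0.9574 calls in WT (mean ± SD, n = 4 each). For Alx1, 13 fragments held 11.75 ± 1.5 calls in upper and 2.5 ± 3 calls in lower WT libraries. For Pax3, 15 fragments held 15, 15, 14 and 11 calls in upper and 3, 0, 1 and 1 calls in lower Ezh2cKO libraries, and 13.5 ± 2.38 against 10.5 ± 2.38 calls in WT. For Fosl2, 16 fragments held 14.5 ± 1.915 calls in upper and 1.25 ± 0.9574 calls in lower Ezh2cKO libraries, and 3.5 ± 1.915 against 0.75 ± 1.5 calls in WT. This reading was added after the data had been seen. With fragments chosen by a difference of 4 libraries the WT sides did not overlap at 4 baits, and by a difference of at least 2 libraries at 11.

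Single pairs were compared next. A pair was named upper-only when it was called in all 4 upper and no lower library of a genotype, and lower-only in the reverse case. Among 124576 pairs called in at least 4 of the 8 Ezh2cKO libraries, 635 were upper-only (0.51%) and 636 lower-only (0.511%). In WT there were 940 upper-only (0.789%) and 983 lower-only (0.825%) among 119190 pairs. Only pairs called in exactly 4 of 8 libraries can be of either kind, 27731 in Ezh2cKO and 26683 in WT. In 2 upper and 2 lower libraries were called 13399 of the 27731 and 11933 of the 26683. If 4 calls fell on any 4 of the 8 libraries alike, a fraction of 0.0286 of such pairs would be upper-only or lower-only. Part of the positional pairs would thus be found without any difference between sides, and no single pair was tested. Of the Ezh2cKO positional pairs, 622 upper-only and 629 lower-only pairs were in cis, with median distances of 321.8 and 364.1 kb. They were spread thinly: the 635 upper-only pairs belonged to 561 baits, 514 of them with 1 pair, and the 636 lower-only pairs to 593 baits, 555 of them with 1 pair. A pair missing from a list had no score of 5 or more there, which does not show that the contact was absent.

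Positional pairs of 1 genotype leaned the same way in the other. The 940 WT upper-only pairs were found 437, 444, 430 and 406 times in upper and 346, 366, 348 and 344 times in lower Ezh2cKO libraries. As shares these were 45.66% ± 1.757 in upper and 37.34% ± 1.079 in lower libraries (SD, n = 4 each), 8.32 percentage points apart (exact permutation test over libraries, two-sided p = 0.02857, the smallest that 4 against 4 allow). This test treats the 4 libraries of a side as exchangeable, although they are 2 replicates of each of 2 tissues, and the 4 tissues can be halved in only 3 ways. The 983 WT lower-only pairs were found 369, 375, 442 and 431 times in upper and 445, 466, 490 and 530 times in lower Ezh2cKO libraries. The shares were 41.12% ± 3.823 and 49.11% ± 3.711, a difference of -7.99 points (exact permutation p = 0.02857), and the 2 Mx libraries lay just under the 2 Md libraries. This p was not reached at a score of at least 7 (exact p = 0.05714) or at least 10 (exact p = 0.1143), nor for pairs defined as 3 against 0 (exact p = 0.05714) or 4 against at most 1 (exact p = 0.1143), where the differences were -8.11, -10.4, -4.90 and -5.70 points. Leaving out any 1 library leaves 3 against 4, for which the smallest exact p is 0.0571.

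Read the other way, the 635 Ezh2cKO upper-only pairs were found 297, 314, 299 and 314 times in upper and 232, 229, 219 and 218 times in lower WT libraries. The shares were 48.19% ± 1.461 and 35.36% ± 1.111 (SD, n = 4 each), 12.8 points apart (exact permutation p = 0.02857). The 636 Ezh2cKO lower-only pairs were found in 31.72% ± 3.83 of upper and 39.97% ± 1.933 of lower WT libraries, a difference of -8.25 points (exact permutation p = 0.02857), which at a score of at least 7 was -7.61 points (exact p = 0.05714). All pairs called in at least 4 of 8 libraries, taken as a whole, were also read in the libraries of the other genotype. Those of Ezh2cKO averaged 65.15% in upper and 65.43% in lower libraries, and those of WT averaged 67.92% and 67.72%, so the sides were within 1 percentage point of each other. These 4 share tests form 1 family, and at this size each reached the smallest p possible, which the adjustment over the 4 leaves at the same value.

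**Figure D4:**
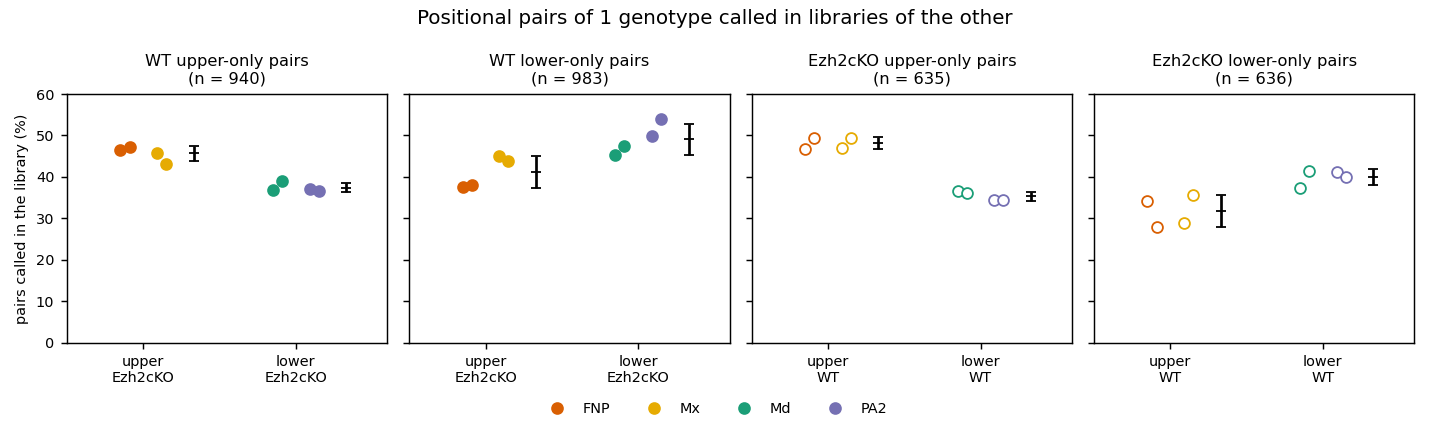
Percent of the positional pairs of 1 genotype that were called in each library of the other (vertical axis). The left 2 panels show WT pairs read in Ezh2cKO libraries and the right 2 panels show Ezh2cKO pairs read in WT libraries, points are libraries coloured by tissue and bars are means with SD of 4 libraries. Upper libraries lie above lower ones for upper-only pairs and below them for lower-only pairs in all 4 panels.

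Few pairs were fully positional in both genotypes. Of the 635 Ezh2cKO upper-only pairs, 10 were also upper-only in WT, 2 were lower-only in WT, 52 were called in no WT library and 16 in all 8. More WT calls on the same side were found for 319 pairs (50.24%) and more on the opposite side for 149 (23.46%). Of the 636 lower-only pairs, 3 were lower-only in WT, 1 was upper-only, 83 were in no WT library and 7 in all 8. The shared upper-only pairs included 2 of Alx1, 158.8 and 156.8 kb from its bait, 1 of Lix1 21.6 kb away, and 1 of the bait near Gata3 at 1183.6 kb. Edrf1, Xkr5, Ccdc90b and Lin7b had 1 each, and the other two belonged to unnamed baits. The shared lower-only pairs belonged to Dlx2, with an other end 311.9 kb away in Dync1i2, to Celsr1, a planar polarity gene, and to Chordc1. Slc17a7, Fras1 and Mphosph8 had pairs that were positional in opposite directions in the 2 genotypes.

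A few baits held several Ezh2cKO positional pairs. Fosl2 and Pax3 had 5 upper-only pairs each, the most of any bait in Ezh2cKO, while in WT Fosl2 had none and Pax3 had 1 upper-only and 4 lower-only pairs. Six2, Lix1, Stx18 and the bait near Gata3 had 4 each, against 0, 5, 5 and 2 upper-only pairs in WT. Alx1, Msx1, Msx2, Gata2, Lef1 and Sall1, all genes of developmental regulators, had 3 each, as did Smad7, Wnt1, Hmcn1, Hjurp, Ruvbl1 and a pair of unnamed baits. In WT Alx1 had 4 upper-only pairs, Msx1 had 2, Msx2 and Lef1 had 1 each, and Gata2 and Sall1 had 0. Lower-only pairs were at most 3 per bait, at Jun, Mest, Arl9, Galr1, Ticam1 and 1 unnamed bait. Jun reached 594.6, 651.2 and 708 kb into Fggy, and Mest, an imprinted gene, reached 214.8 to 288.9 kb.

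Some positional pairs were called in none of the WT libraries. Baits of the Hox clusters held 4 of the 635 upper-only (0.63%) and 4 of the 636 lower-only pairs (0.629%), against 1.23% of all pairs called in at least 4 Ezh2cKO libraries. Of these, 3 upper-only pairs were of this kind, 1 each at Hoxd9 (with Nfe2l2 as the other bait), at Hoxc9 with an other end 204.8 kb away and at Hoxd4 with one 379.8 kb away. There were also 3 lower-only pairs of this kind, at Hoxc10 (291.2 kb, to Nfe2), Hoxc13 (367.9 kb, to Copz1) and Hoxb9 (499.2 kb, to Snx11). Sall1 had 1 such upper-only pair 415.1 kb away. The highest scores among Ezh2cKO positional pairs of named baits were calls between chromosomes, of Wnt1 to chromosome 11 on both sides, of Ddn and of Tiparp. Wnt1 had 3 upper-only and 2 lower-only pairs of this sort, all with calls in WT libraries too. The protocol names Wnt1::Cre;ROSARFP beside Ezh2cKO embryos but not the driver of the knockout, and the part of a Wnt1 transgene in these calls was not tested.

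In the other direction, 104 of the 940 WT upper-only and 99 of the 983 WT lower-only pairs were called in no Ezh2cKO library, while 39 and 52 were called in all 8. Hand2 had the most WT lower-only pairs, 6. Mpped2 and an unnamed bait at chr11:85513643-85523076 had the most WT upper-only pairs, 11 each.

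Pathway and region lists were described by their counts and medians. Of 18 tested baits of the frontonasal and upper face list, 4 passed with more upper calls and none with fewer in Ezh2cKO (Pax3, Msx2, Alx1 and Six2), where 0.106% of all baits tested passed with more upper calls, and the median difference was 0.25 against 0.00 for all baits tested. In WT 1 of the 18 passed, Msx2, against 0.783% of all baits, with a median of 0.13. The 14 other baits of the list did not pass in Ezh2cKO. Msx1 had 29, 30, 28 and 29 calls in upper and 22, 15, 11 and 10 calls in lower Ezh2cKO libraries, a difference of 1.05 (adjusted p = 0.0726). Alx4 differed by 0.67 (adjusted p = 0.544) and by 1.15 in WT (adjusted p = 0.118). Tfap2a, with a mean of 45 calls in upper Ezh2cKO libraries and 47 in lower ones, differed by -0.06. Baits of this list held 23 of the 635 Ezh2cKO upper-only pairs (3.62%) and 2 of the 636 lower-only pairs (0.314%), against 0.307% of all pairs called in at least 4 libraries. In WT they held 15 (1.6%) and 10 (1.02%), against 0.389%. The 23 pairs included 5 of Pax3, 4 of Six2 and 3 each of Alx1, Msx2 and Msx1. That share thus repeats in part the bait differences of the same libraries, and the list was chosen with earlier results of these data known.

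Of the endothelin and distal-less pathway, 1 of 19 tested baits passed in Ezh2cKO, Hand2, against 0.145% of all baits tested, and the median difference was 0.03. The receptor gene Ednra had 9, 15, 14 and 13 calls in upper and 5, 8, 2 and 8 calls in lower Ezh2cKO libraries, a difference of 1.22 that did not pass (adjusted p = 0.2025), against -0.02 in WT. Its ligand gene Edn1 differed by 0.74 (adjusted p = 0.513). The targets Dlx5 and Dlx6 had similar calls on both sides, with differences of 0.10 and 0.27. Dlx3 differed by -0.25 in Ezh2cKO (adjusted p = 0.762) and by -0.999 in WT, where it passed (adjusted p = 0.0191), but the difference between genotypes did not pass (adjusted p = 0.6575). Gsc, a homeobox gene of the lower jaw, differed by -0.60 (adjusted p = 0.226). In WT 3 of the 19 baits passed, against 0.783% of all baits, Jag1 with more upper calls and Hand2 and Dlx3 with fewer.

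The mandibular list had 18 tested baits, of which Msx2 passed with more and Hand2 with fewer upper calls, with a median of 0.03. None of 13 maxillary baits passed in Ezh2cKO (median -0.03), and Bmp4 passed in WT. Of 22 second arch baits, Six2 alone passed (median 0.12). Over all baits tested 0.145% passed in Ezh2cKO and 0.783% in WT, so none among 13 is near the background and is no result about maxillary baits.

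None of the 41 Hox baits tested passed in Ezh2cKO (median 0.10), and 1 did in WT. With 0.145% and 0.783% of all baits passing, these counts are near the background and are no result about Hox baits. Hoxa2, the selector of second arch identity, had 17, 7, 10 and 14 calls in upper and 17, 11, 18 and 28 calls in lower Ezh2cKO libraries, a difference of -0.60 (adjusted p = 0.429). In WT it had 28, 23, 29 and 27 calls in upper and 25, 23, 64 and 64 calls in lower libraries, where the PA2 libraries stood above the rest. The Hoxb2 bait that passed in WT, with a difference of 1.04 (adjusted p = 0.0387), differed by -0.11 in Ezh2cKO (adjusted p = 0.931). That bait had 26 and 26 calls in Md and 5 and 8 calls in PA2 of WT, so the lower side was split there.

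None of the tested baits for markers of other cell types passed in either genotype: 4 of epithelium, 4 of endothelium, 6 of muscle, 3 of neurons and glia and 10 of blood, with Ezh2cKO medians of -0.26, 0.04, -0.21, 0.35 and 0.09. Few of these baits reached the 5-call minimum, and contact lists do not measure expression, so cell identity was not tested. None of 14 Polycomb subunit and 25 housekeeping baits passed. With 0.145% of all baits passing in Ezh2cKO and 0.783% in WT, the absence of passing baits in lists of this size is near the background. It is no result about the marker, Polycomb or housekeeping baits.

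Differences within a side were rare. Between FNP and Mx of Ezh2cKO 1 bait passed (0.00967%), an unnamed one on chromosome 8 with fewer calls in FNP. Between Md and PA2 1 bait passed (0.00967%), that of Pex13 and Pus10, with 2 and 3 calls in Md and 17 and 16 calls in PA2, a difference of -2.47 (adjusted p = 0.0215). Both counts rest on 2 libraries a tissue: without FNP replicate 2 there were 17 baits between FNP and Mx, and without either PA2 replicate there were 0 between Md and PA2. None of the 15 positional baits passed either test. Msx2 differed by 0.91 between FNP and Mx (adjusted p = 0.468) and Eya1 by 0.92 between Md and PA2 (adjusted p = 0.627).

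When each Ezh2cKO tissue was set against the other tissues, 6 baits passed with more (0.058%) and 5 with fewer calls (0.0483%) in FNP, 1 with more (0.00967%) and 3 with fewer (0.029%) in Mx. In Md it was again 1 with more and 3 with fewer (0.029%), and in PA2 8 passed (0.0773%), 1 with more and 7 with fewer (0.0677%). In all, 11 baits passed in FNP (0.106%) and 4 each in Mx and Md (0.0387%). Msx2, Pax3, Angpt2 and Eya1 passed in FNP with more calls and in PA2 with fewer. Hand2 passed in Md with 1.02 more on the log2 scale (adjusted p = 0.00255) and in Mx with a difference of -1.09 (adjusted p = 0.000984). The F test for any difference among the 4 tissues passed at 23 baits (0.222%), 12 of them among the 15.

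Ezh2cKO libraries shared only slightly more pairs within a side than between sides. The Jaccard index of cis pairs, the shared fraction of all pairs called in either library, had a median of 0.3184 between replicates of a tissue, 0.3146 between tissues of a side and 0.3101 between sides, against 0.3181, 0.3082 and 0.2995 in WT. The most similar library was of the same tissue for 4 of 8, of the same side for 3 and of the other side for 1. None of 8 library measures differed between sides after adjustment. Calls between chromosomes made up 3.59% ± 0.251 of upper and 4.08% ± 0.264 of lower Ezh2cKO calls (SD, n = 4 each; exact permutation p = 0.05714, adjusted p = 0.457). Calls with a Hox bait averaged 910.7 ± 47.77 per 100000 in upper and 879.7 ± 7.631 in lower libraries (exact permutation adjusted p = 0.594).

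Contacts between developmental promoters were scarce on both sides without Ezh2. Such pairs, at least 100 kb apart or on different chromosomes, numbered 10, 5, 8 and 5 in upper and 6, 3, 6 and 3 in lower Ezh2cKO libraries, against 140, 168, 171 and 171 in upper and 131, 142, 147 and 146 in lower WT libraries. As percent of distant bait-to-bait pairs the Ezh2cKO sides did not differ beyond their spread (exact permutation p = 0.1714, adjusted p = 0.594). Of 482 distinct pairs in the 16 libraries, 20 were called in any Ezh2cKO library and 4 in at least 4 of them. Irx2 with Irx1 and Irx5 with Irx3 were called in all 8, Foxa1 with Pax9 in 7 and Foxa2 with Pax1 in 6. None was upper-only or lower-only in Ezh2cKO, and in WT 1 was upper-only and 1 lower-only. The counts include pairs of Wnt1 with Hoxb genes on chromosome 11. Wnt1 with Hoxb13 was called in all 8 WT and 0 Ezh2cKO libraries, and Wnt1 with Hoxb9 in 6 WT libraries and 1 Ezh2cKO library. The part of a Wnt1 transgene in these pairs was not tested.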

How the data were processed

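Promoter capture Hi-C of sorted cranial neural crest was deposited as 1 list of fragment pairs per library. The authors' deposited value is a score per pair (CHiCAGO, per the file names), and per the file contents only pairs with a score of 5 or more are listed. Version, aligner and settings are not given in the labels. Builds are GRCm38 and mm10, per the submitters' processing notes. Scores are scaled within a library, read counts were not used here, and depth is therefore unknown. Totals of 142284 to 190343 calls per library set the precision.

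Upper (FNP, Mx) and lower (Md, PA2) follow the tissue labels. The members, gene lists and tests were chosen with earlier results of these data known. Baits were named by protein-coding gene starts or ends within 1000 bp (RefSeq), 16506 of 22203 named. Cis calls were counted per bait, with calls between baits counted for both. Log2 of (calls + 0.5) per (cis total + 1) was fitted in limma 3.58.1 (R 4.3.3) with 12 group means over all 24 libraries, trended empirical Bayes and Benjamini-Hochberg adjustment over the 10344 baits that averaged 5 or more calls. All adjusted p per bait are from this limma fit, and library shares were compared by exact permutation (scipy 1.17.1). p-values measure the spread between the 2 biological replicates of each group. Named genes were all baits past the threshold in Ezh2cKO, then named baits of smallest p up to 10 each way, the 5 largest each way in the other contrasts, positional pairs of highest mean score or of a gene list, and a set of facial regulators. Baits singled out for their number of positional pairs were chosen after seeing values. The fit was also run on simulated independent counts without tissue effects. Such counts differ from calls past a score minimum, so that run does not measure the error rate of the fit on these data. Replicate numbers did not pair libraries (correlations of -0.0533 to 0.0772 among Ezh2cKO groups). Alternatives were other fits, filters, score minimums, matching rules and each library left out. One PA2 Hoxa2PTE-36kb-del library carries another title in its genotype field and was grouped by its own title.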

Additional observations from a re-analysis of the deposited data

Results flagged for a closer look

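Of 100 groups of 4 libraries examined, 4 held a library far from the other 3, where chance gives about 1 in 20. Pax3 had 6.307 cis calls per 100000 in PA2 Ezh2cKO replicate 2, against 8.513 to 8.795 in the other lower Ezh2cKO libraries. Runx2 had 6.537 in Md WT replicate 2, against 3.04 to 3.623 in the other lower WT libraries. T had 1.199 in FNP WT replicate 1, against 2.928 to 3.066 in the other upper WT libraries. Cis pairs over 1 Mb made up 23.01% in Md Ezh2cKO replicate 1, against 27.6% to 28.54% in the other lower Ezh2cKO libraries. FNP Ezh2cKO replicate 1 was close to it at 24.23% but was not flagged within its own side, so this trait is not particular to the Md library. Md Ezh2cKO replicate 1 is also the library without which the fewest baits passed in Ezh2cKO. Without Md replicate 1, 8 of the 15 baits did not pass, and each of the 8 kept its direction. Whether the 2 traits are linked was not tested.

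The upper minus lower difference of Pax3 differed between genotypes by 1.95 on the log2 scale, which passed the limma test of that difference (adjusted p = 0.000279). The bait of Agpat1, Egfl8, Ppt2 and Prrt1 had its sides in opposite order, with no overlap. In Ezh2cKO the upper libraries averaged 3.37 ± 0.681 and the lower 8.23 ± 2.60 cis calls per 100000, a difference of -4.87 (SD, n = 4 each), and in WT they averaged 7.21 ± 1.21 and 4.52 ± 1.05. The limma test of the difference did not pass (adjusted p = 0.192). For scale, all upper libraries lay below all lower ones at 2.58% of all baits tested in Ezh2cKO, and above them at 3.69% in WT. Opposite order was looked for only among the baits chosen for naming, so how common it is was not tested.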

How the results depend on the processing

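The 15 baits of Ezh2cKO became 9 to 26 when 1 library was left out, with 9 without Md replicate 1 and 26 without Md replicate 2. Hand2, Pax3, Msx2, Eya1 and Runx2 passed under every alternative fitted for them (23 to 25 each). Calls were lost for Six2 in 15 alternatives, Fosl2 in 11, Lix1 in 10, Rgmb, Stx18 and T in 6 each, Alx1 in 4, Slc23a1 in 3, the bait near Gata3 in 2 and Angpt2 in 1. No result reversed. Leaving out 1 library gave 28 to 59 baits in WT, 1 to 3 for the genotype difference, 6 to 37 for FNP, 1 to 9 for Mx, 1 to 23 for Md, 6 to 10 for PA2 and 16 to 31 for the F test. Positional pairs then numbered 635 to 1654, 636 to 1778, 940 to 2111 and 983 to 2279, since 3 libraries on a side are easier to fill. The upper minus lower shares ranged from 5.86 to 13.3 points (Ezh2cKO upper-only), -9.58 to -4.48 (Ezh2cKO lower-only), 6.00 to 9.15 (WT upper-only) and -9.27 to -5.44 (WT lower-only). FNP against Mx gave 1 to 17 baits and Md against PA2 gave 0 to 7. For single baits and measures, 4591 alternatives kept the side of the threshold, 26 gained it and 184 lost it.

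Counts of baits that passed also changed with the fit, the filter and the score minimum, and the cause was not tested. With only the compared libraries, 6 passed for upper against lower in Ezh2cKO and 48 in WT, 0 for FNP against Mx and for Md against PA2, 6 for FNP, 0 for Mx, 0 for Md, 3 for PA2 and 8 for the F test. With 2 means per genotype 44 passed in WT, and without a trend 46. With tissue as a random block 26 passed in Ezh2cKO. With a mean of at least 10 calls 27 passed in Ezh2cKO, 0 for Md against PA2, 17 for FNP, 2 for Md and 14 for PA2. With a score of at least 7, 23 passed in Ezh2cKO and 42 in WT, 0 in both tissue pairs, 5 for FNP, 1 for Md and 9 for the F test. With a score of at least 10, 10 passed in WT and 0 for the genotype difference. With the replicate block, which the replicate numbers do not justify, 15 passed in Ezh2cKO, 64 in WT, 1 for the genotype difference, 1 for Mx, 7 for Md and 14 for the F test. Counting only the first-listed bait, an alternative added after seeing the data, gave 18 in Ezh2cKO, 76 in WT and 1 for the difference.

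Positional pairs (Ezh2cKO upper-only and lower-only, then WT upper-only and lower-only) numbered 271, 253, 375 and 441 at a score of at least 7, and 133, 99, 177 and 164 at a score of at least 10. They numbered 3982, 4274, 5305 and 5270 when 3 libraries against 0 sufficed, and 2387, 2622, 3087 and 3170 for 4 against at most 1. Matching other ends within 10 kb gave 1132 Ezh2cKO upper-only and 1482 and 1570 WT pairs. The share of WT lower-only pairs in upper minus lower Ezh2cKO libraries was -8.11 points at a score of at least 7 (exact p = 0.05714), -10.4 at 10 (exact p = 0.1143), -4.90 for 3 against 0 (exact p = 0.05714) and -5.70 for 4 against at most 1 (exact p = 0.1143). That of Ezh2cKO lower-only pairs in WT was -7.61 at 7 (exact p = 0.05714).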
